A study of Mus musculus with 6 samples.

Results

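The genes of triglyceride synthesis, the lipid droplet and lipolysis were examined in adipose tissue of cavin-3 KO and WT mice. They were chosen by name as 44 genes that carry these steps, and 43 of them had a probe set with 1 gene symbol among the 19937 genes measured. Gk, the glycerol kinase gene, was not analysed here. For Fabp5, which had 2 probe sets, the brighter was used. The data came from 3 cavin-3 KO and 3 WT mice, littermates aged 10 weeks and fasted for 6 hours, each on its own Affymetrix Mouse Gene 1.0 ST array. In the KO mice a lacZ/neo cassette took the place of cavin-3 (Prkcdbp, listed as Cavin3) in every cell, and by the methods the line came from 1 targeted clone of C57BL/6N embryonic stem cells and was bred in C57BL/6. WT mice carried the intact gene on the same background, and all mice were kept on chow. The fat depot is not given in the labels. Values are RMA intensities on the log2 scale, and replicates 1, 2 and 3 of a genotype are given in that order.

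Fat cells build triglyceride by adding fatty acyl chains to glycerol 3-phosphate step by step, and store it in a droplet coated with perilipins. In fasting, lipases on the droplet surface take the chains off again, and the fatty acids and glycerol leave the cell. Caveolae are abundant in fat cell membranes, where fatty acids also enter, and the study asked whether loss of the caveolar protein cavin-3 alters fat metabolism.

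Cavin3 itself had a log2 signal of 6.79, 6.78 and 7.12 in KO, against 10.05, 10.90 and 10.45 in WT, which is 0.0843-fold (95% interval 0.0578 to 0.123, adjusted p = 0.0409 from limma over all probe sets). Without single arrays that adjusted p lay between 0.0459 and 0.509. The 8 measured adipocyte markers, among them Adipoq and Pparg, were brighter than the median probe set on each of the 6 arrays. KO replicate 3 and WT replicate 2 stood apart from the other 4 arrays. Xist, the RNA of the inactive X chromosome, was at 11.34 and 11.15 in these 2 and at 3.70 to 6.30 in the others, and the Y-linked Uty at 3.21 and 3.36 in these 2 and at 7.89 to 8.14 in the others, although by the methods only male animals were analysed. Skeletal muscle genes averaged 8.92 and 8.83 there, against 5.97 to 6.80 elsewhere, and brown and beige fat genes 7.35 and 7.38, against 5.87 to 6.14. Of the 8 measured epididymis genes, Adam7 and Crisp4 were bright on another pair. Adam7 had 9.19 in KO replicate 2 and 10.33 in WT replicate 1, and 3.67 to 4.51 on the other arrays, and Crisp4 had 6.56 and 7.04 on that pair and 2.63 to 2.87 elsewhere. With these 2 genes, the list averaged 5.04 and 5.34 on that pair and 3.86 to 3.94 elsewhere. The rest of the list (Lcn5, Lcn8, Lcn9, Adam28, Rnase10 and Spint4) was dimmer than the median probe set on every array. None of these was bright on both arrays of that pair, such as Lcn8, with 4.15 and 4.19 there, against 4.01 to 4.34 elsewhere. Macrophage genes averaged 8.57 to 8.86 in KO and 8.64 to 9.10 in WT, and endothelial genes 9.42 to 9.52 in KO and 9.20 to 9.62 in WT. In whole tissue, fewer cells of a type and less RNA per cell cannot be told apart.

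By limma, 0 of the 43 genes reached an adjusted p of 0.05, where 0.00575% of all probe sets did (2 of 34760), and each had an adjusted p of 1.0. At an unadjusted p under 0.05 there were 0 of 43, against 0.838% of all genes. On log2 values, the methods' t-test gave a count of 1 (Pck1) before adjustment, where 1.74% of all genes passed, and 0 after it. The KO level was higher for 23 genes and lower for 20, where 50.3% of all genes were higher, and the median difference was 0.0056 on the log2 scale, against 0.00085 over all genes. A difference of under 1.1-fold was found for 32 of the 43. The 95% interval lay within 2-fold for 40 genes and within 1.5-fold for 33. The intervals of Mogat1, Mogat2 and Cideb reached past 2-fold. For 42 genes, the larger of the KO and WT ranges exceeded the difference between the genotype means. Pck1 was the exception by a small margin, with a WT range of 0.195 against a difference of 0.196. The share of all genes that meet this is not given here. The KO and WT values overlapped for every gene but Pck1, or 2.33% of the members, where 4.61% of all genes did not overlap and 2.08% did so with KO higher. Without WT replicate 1 the number of genes higher in KO was 13 of 43, and without any other array it was 16 to 28. Without KO replicate 3 and WT replicate 2 together it was 29.

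**Figure D1:**
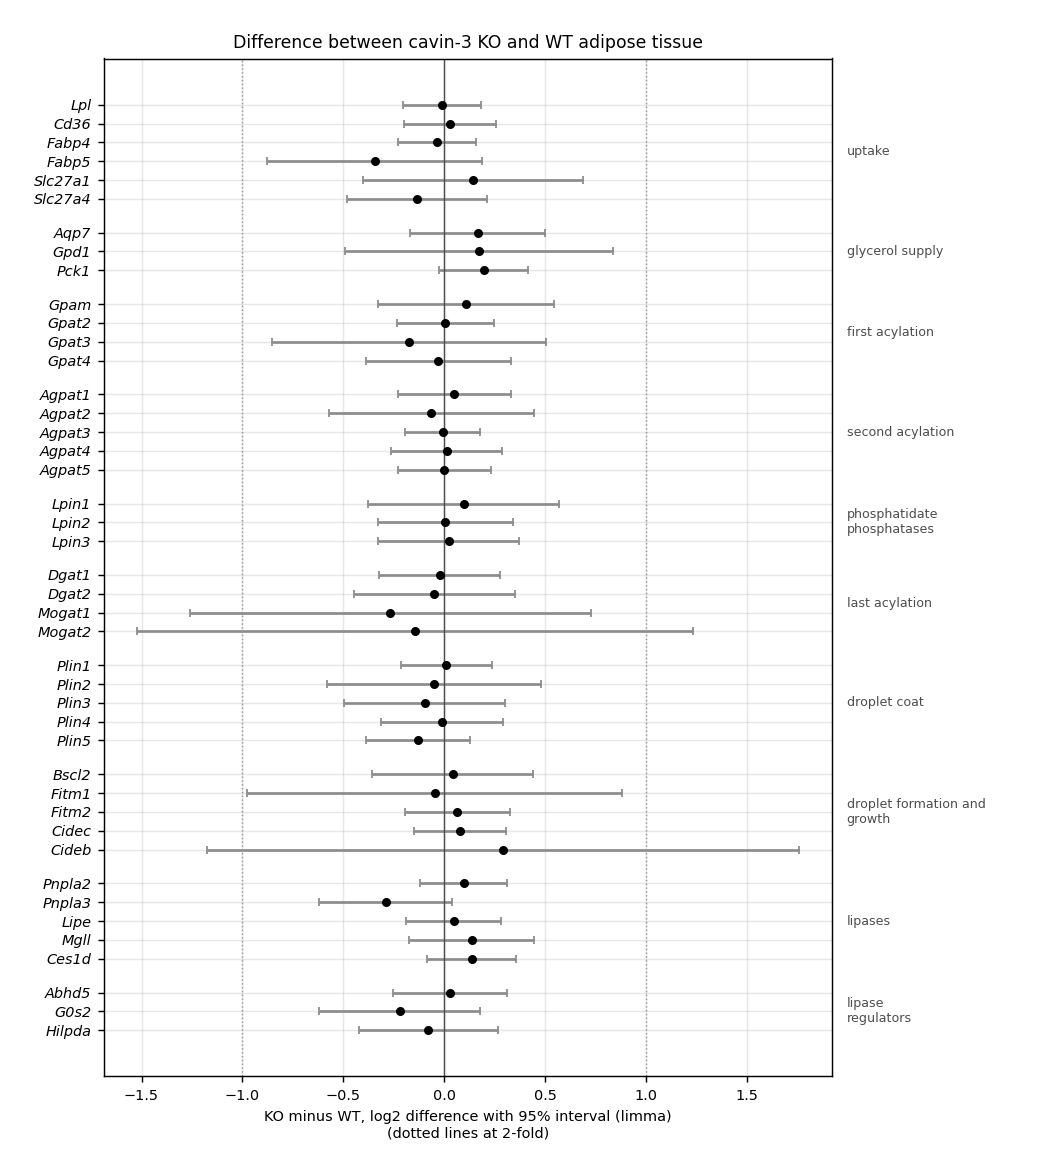
KO minus WT log2 difference (points) with the 95% interval from limma (bars) for 43 genes, grouped by step from top to bottom, with dotted lines at 2-fold. All intervals include 0, and those of Mogat1, Mogat2 and Cideb cross a dotted line.

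The signal of a probe set also depends on its probes, so levels set side by side here describe signal and not transcript number. The signal was above the array median on every array for 38 genes and below it on every array for Gpat2. It crossed the median for Mogat2, Fitm1, Cideb and Hilpda. At a mean log2 signal of 12 or more there were 8 of the 43 genes, against 58 of all 19937. These 8 were Lpl, Cd36, Fabp4, Dgat2, Plin1, Cidec, Pnpla2 and Lipe, which belong to 5 of the 10 steps, and the highest signal of any probe set was 13.34. Their median SD within a genotype was 0.087, against 0.081 for all genes as bright, although Dgat2 ranged over 0.60. Whether differences are compressed near the top of the scale was not tested. For the 16 genes between 10 and 12 the median SD was 0.18, against 0.15 for all genes in that band. For the 8 members between 8 and 10 it was 0.21, against 0.14, and for the 11 below 8 it was 0.19, against 0.15.

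**Figure D2:**
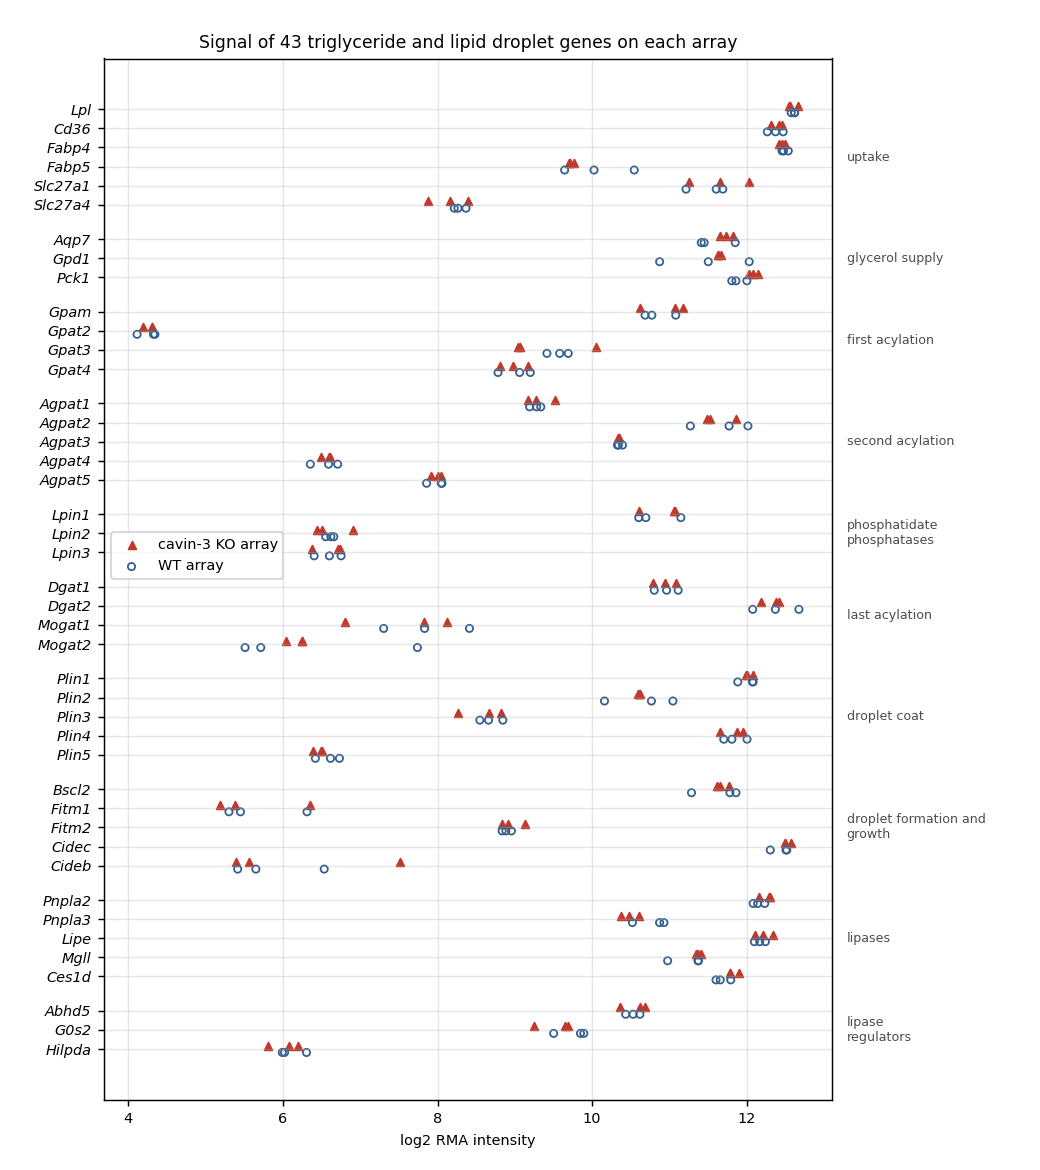
Log2 RMA intensity of 43 genes on each array, with KO arrays as triangles and WT arrays as circles, grouped by step. Pck1 is the gene whose triangles all lie right of its circles, and Cideb, Mogat2 and Mogat1 have the widest spread.

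Promoter sequence is shown for 3 genes on which the account turns. Pck1 and Pnpla3 had the smallest unadjusted p of the members and differed in opposite directions, and Fitm1 followed 2 of the arrays. For 33 of the 43 genes a RefSeq promoter window was found (48 windows, GRCm38.p6), and the 250 bases before the annotated start were used. Pck1 lies on the plus strand at chr2:173152823-173153072, Pnpla3 on the plus strand at chr15:84167566-84167815 and Fitm1 on the plus strand at chr14:55575424-55575673. Capitals mark TNACGTCA, a form of the cyclic AMP response element, in Pck1 and Pnpla3, and the E-box CAGCTG, a form bound by myogenic factors, in Fitm1.
Pck1: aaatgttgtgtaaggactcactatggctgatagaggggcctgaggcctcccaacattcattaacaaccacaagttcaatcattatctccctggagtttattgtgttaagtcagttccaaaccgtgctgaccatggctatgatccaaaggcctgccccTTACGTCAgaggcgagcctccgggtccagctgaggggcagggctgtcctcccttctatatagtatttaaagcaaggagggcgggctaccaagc
Pnpla3: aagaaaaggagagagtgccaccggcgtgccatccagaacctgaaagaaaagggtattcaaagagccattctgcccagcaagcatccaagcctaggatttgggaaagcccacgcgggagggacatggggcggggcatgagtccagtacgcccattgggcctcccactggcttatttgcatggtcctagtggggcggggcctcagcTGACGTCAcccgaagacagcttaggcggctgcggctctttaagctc
Fitm1: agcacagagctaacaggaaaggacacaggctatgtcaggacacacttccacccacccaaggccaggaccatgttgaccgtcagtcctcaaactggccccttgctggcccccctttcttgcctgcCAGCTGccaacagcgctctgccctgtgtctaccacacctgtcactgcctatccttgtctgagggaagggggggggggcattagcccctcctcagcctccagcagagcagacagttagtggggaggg
On either strand, TNACGTCA was found in the windows of 2 of the 33 genes, Pck1 at -93 to -86 and Pnpla3 at -46 to -39, counted back from the base before the start as -1. That is 2 of the 48 windows (4.17%), where 2.52% of all 32851 windows held it. CAGCTG was present in 10 of the 48 windows (20.8%), from 9 genes, and in 13% of all windows. The 9 were Fitm1, Cidec, G0s2, Gpat2, Lpin3, Pck1, Plin2, Pnpla3 and Slc27a1, so it was not particular to Fitm1. In Pck1 it lies at -67 to -62 and is not in capitals above. In Pnpla3 it overlaps the marked element. The E-box CACGTG was present in 4 of the 48 windows (8.33%), those of Lipe, Mgll, Lpin2 and Slc27a1, and in 6.02% of all windows. The response element of PPAR receptors, taken as AGGTCA repeated with 1 base between, was in 0 of the 48 windows and in 0.0335% of all. A match describes the letters and does not show that a factor binds there.

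The steps that bring fatty acids into the fat cell differed by less than 1.1-fold at the 3 brightest genes. Lpl, the lipase that frees fatty acids from circulating triglyceride, had 12.66, 12.56 and 12.55 in KO, against 12.58, 12.62 and 12.62 in WT. This was 0.991-fold with a 95% interval of 0.867 to 1.13. Cd36, a fatty acid translocase of the plasma membrane, and Fabp4, the main fatty acid carrier of the fat cell cytosol, were at 1.02-fold (0.872 to 1.19) and 0.976-fold (0.854 to 1.11). Of the fatty acid transport proteins, Slc27a1 was at 1.1-fold (0.757 to 1.61) and Slc27a4 at 0.911-fold (0.716 to 1.16). Slc27a1 was highest in KO replicate 3 (12.03) and Slc27a4 lowest there (7.88).

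Fabp5, a second carrier of the cytosol, had the largest difference of the 43 genes on the log2 scale, at -0.34 (0.787-fold, interval 0.545 to 1.14, adjusted p = 1.0 from limma). Its signals were 9.76, 9.70 and 9.72 in KO, against 9.64, 10.54 and 10.02 in WT. The KO arrays were nearly equal, and WT replicate 1 lay below all of them while WT replicate 2 lay far above. The difference was -0.11 without WT replicate 2 and -0.56 without WT replicate 1. The dimmer probe set of Fabp5 had 9.24, 9.23 and 9.17 in KO, against 9.33, 9.96 and 9.54 in WT, with no overlap. Its difference was -0.40 (unadjusted p = 0.0497 and adjusted p = 1.0 from limma). RefSeq lists a pseudogene of Fabp5, and where the probes of either set lie was not analysed, so the value is uncertain for the gene itself.

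All 3 genes that supply or move the glycerol backbone were higher in KO, with a median log2 difference of 0.17, and none passed the test. Pck1, the enzyme of glyceroneogenesis that makes glycerol 3-phosphate in fasted fat, was the gene whose groups did not overlap. It had 12.14, 12.03 and 12.09 in KO, against 11.86, 11.81 and 12.00 in WT. The lowest KO array lay just above the highest WT array. The KO level was 1.15-fold (0.984 to 1.33, unadjusted p = 0.0723 and adjusted p = 1.0 from limma). Without each array in turn the log2 difference was 0.15 to 0.25, and it was 0.15 without KO replicate 3 and WT replicate 2. Aqp7, the channel through which glycerol leaves the fat cell, was at 1.12-fold (0.889 to 1.42). Gpd1, which makes glycerol 3-phosphate from a glycolytic intermediate, had 11.67, 11.63 and 11.63 in KO, against 10.87, 12.03 and 11.50 in WT. Its KO arrays lay within the span of the WT arrays. The fold was 1.13 (0.711 to 1.79), and the log2 difference was -0.12 without WT replicate 1 and 0.45 without WT replicate 2.

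The acyltransferases of the first step had a median log2 difference of -0.012. Gpam, the mitochondrial enzyme, was at 1.08-fold (0.798 to 1.46), Gpat4, of the endoplasmic reticulum, at 0.980-fold (0.764 to 1.26), and Gpat2 was dim on all arrays. Gpat3, the other enzyme of the endoplasmic reticulum, split the KO arrays. It had 9.06, 9.05 and 10.05 in KO, against 9.41, 9.69 and 9.58 in WT. KO replicates 1 and 2 lay below all WT arrays and KO replicate 3 above all of them. The fold was 0.886 (0.553 to 1.42, adjusted p = 1.0 from limma), and the log2 difference was -0.51 without KO replicate 3 and -0.0044 without KO replicate 2.

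The second acylation, from lysophosphatidate to phosphatidate, had a median log2 difference of 0.0015 over 5 genes. Agpat1 had 9.28, 9.52 and 9.16 in KO, against 9.28, 9.34 and 9.19 in WT, at 1.04-fold (0.853 to 1.26). Agpat2, without which fat is lost in human lipodystrophy, was at 0.956-fold (0.672 to 1.36) and varied more, with its lowest signal in WT replicate 1 (11.27) and its highest in WT replicate 2 (12.02). Agpat3 ranged over only 0.065 between the 6 arrays. Agpat4 and Agpat5 were at 1.01-fold and 1.0-fold.

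The lipins, which turn phosphatidate into diacylglycerol, had log2 differences of 0.0061 to 0.096. Lpin1, the lipin known for its part in fat cell differentiation, had 11.08, 11.06 and 10.60 in KO, against 10.60, 10.69 and 11.15 in WT. Each genotype held both high and low arrays. The fold was 1.07 (0.770 to 1.48). Lpin2 and Lpin3 were at 1.0-fold (0.796 to 1.27) and 1.02-fold (0.798 to 1.29).

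The 2 diacylglycerol acyltransferases differed by less than 1.1-fold between genotypes. Dgat1 had 10.94, 10.78 and 11.09 in KO, against 10.80, 10.96 and 11.11 in WT, at 0.985-fold (0.800 to 1.21). Dgat2, the unrelated enzyme of the same reaction, had 12.38, 12.42 and 12.18 in KO, against 12.08, 12.67 and 12.37 in WT, at 0.967-fold (0.733 to 1.28). The monoacylglycerol acyltransferases varied far more between arrays than between genotypes. Mogat1 had 8.12, 7.83 and 6.80 in KO, against 7.83, 7.30 and 8.41 in WT, at 0.831-fold (0.418 to 1.65). It was lowest in KO replicate 3 and WT replicate 2, the arrays that stood apart, and the log2 difference was 0.12 without KO replicate 3. Mogat2, best known from the intestine, had 6.03, 6.24 and 6.25 in KO, against 5.51, 7.74 and 5.71 in WT. WT replicate 2 was the bright array. The fold was 0.905 (0.348 to 2.35), and without that array the log2 difference was 0.57 (adjusted p = 1.0 from limma). Dgat2 and Mogat2 follow each other on chromosome 7 in the RefSeq gene order, and both were highest in WT replicate 2 and lowest in WT replicate 1. That order was not particular to these neighbours. Fabp5, Gpd1, Agpat2, Agpat3, Agpat5, Plin1, Plin2 and Bscl2 were also highest in WT replicate 2 and lowest in WT replicate 1.

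The droplet coat had a median log2 difference of -0.052 over the 5 perilipins. Plin1, the perilipin that guards the fat cell droplet from lipases until it is phosphorylated, had 12.08, 11.99 and 12.01 in KO, against 11.88, 12.08 and 12.07 in WT. Its fold was 1.01 with an interval of 0.862 to 1.18. Plin5, the perilipin of oxidative tissues, had 6.49, 6.39 and 6.50 in KO, against 6.42, 6.73 and 6.61 in WT. WT replicate 1 lay among the KO arrays, and the fold was 0.914 (0.764 to 1.09, adjusted p = 1.0 from limma). Plin4, its neighbour on chromosome 17 and a coat protein of small new droplets, was at 0.993-fold (0.805 to 1.22). Plin2 and Plin3, which coat droplets in most tissues, were at 0.965-fold (0.668 to 1.39) and 0.935-fold (0.709 to 1.23). Plin2 was nearly equal on the KO arrays (10.60 to 10.62) and ranged from 10.16 to 11.05 on the WT arrays.

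Among the genes of droplet formation and growth, Fitm1 and Cideb were bright on 1 or 2 arrays. Cidec, which fuses droplets in white fat, had 12.49, 12.50 and 12.57 in KO, against 12.30, 12.51 and 12.52 in WT, at 1.05-fold (0.900 to 1.23). Bscl2 (seipin), which builds the contact from which a droplet grows, was at 1.03-fold (0.781 to 1.36), and Fitm2, which helps droplets bud, at 1.05-fold (0.875 to 1.25). Fitm1, its muscle paralog, had 5.38, 5.19 and 6.35 in KO, against 5.30, 6.31 and 5.45 in WT. It was bright on KO replicate 3 and WT replicate 2, the same arrays on which all 14 skeletal muscle genes averaged over 8. The fold between genotypes was 0.968 (0.508 to 1.84), and what part muscle had in the signal was not tested. Cideb, the paralog of Cidec known from liver, had 7.52, 5.39 and 5.56 in KO, against 5.41, 5.65 and 6.53 in WT. KO replicate 1 was the bright array, and it was also the array with the highest mean of the 9 measured liver genes (6.88, against 5.27 to 6.50 on the others). WT replicate 3, which was next for Cideb, had the lowest mean of these liver genes (5.27). All 9 liver genes had a higher mean in KO (median log2 difference 0.68), where 50.3% of all genes did. By limma, 2 of the 9 had an unadjusted p under 0.05, against 0.838% of all genes, and 0 an adjusted p under 0.05. KO replicate 1 was the highest array for each of the 9, so these genes are not separate observations. Only 1 of the 9 lay above the median on every array, and their part in the signal of Cideb was not tested. The fold of Cideb was 1.22 (0.442 to 3.38), and its log2 difference was -0.39 without KO replicate 1.

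**Figure D3:**
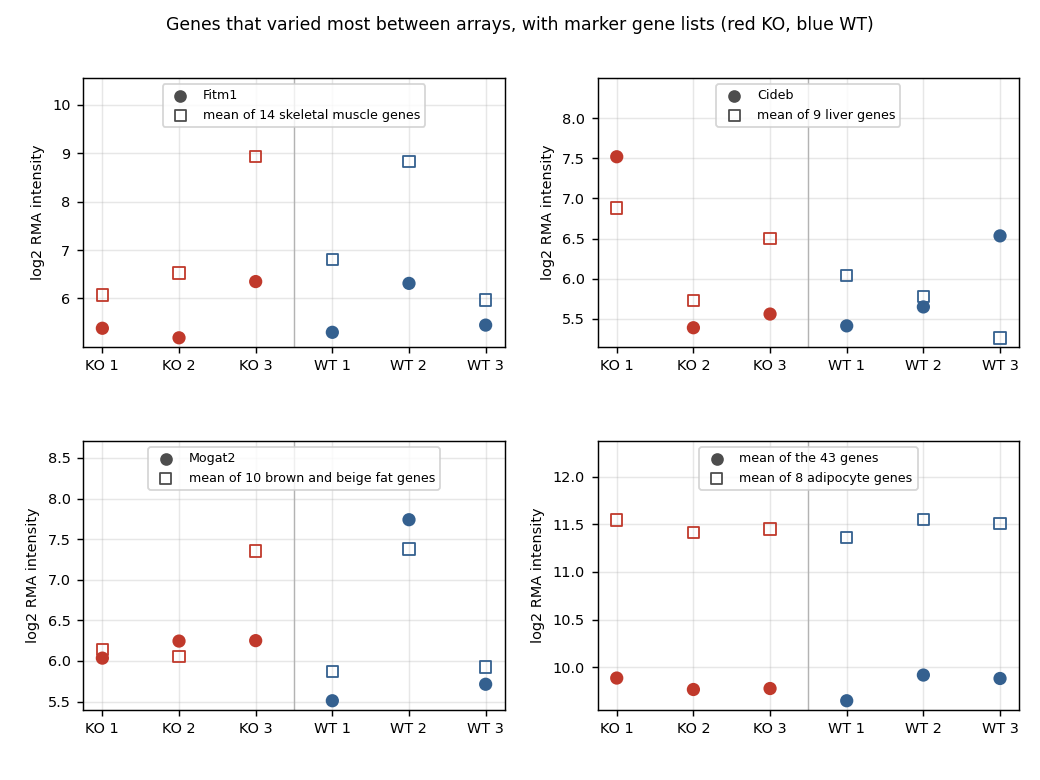
Log2 RMA intensity on each array (KO left, WT right) of Fitm1, Cideb, Mogat2 and the mean of the 43 genes (filled circles), each with the mean of a marker gene list (open squares). Fitm1 and skeletal muscle genes were both highest in KO replicate 3 and WT replicate 2, while Mogat2 was high in WT replicate 2 and not in KO replicate 3.

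The lipases of the droplet lay close together in both genotypes. Pnpla2 (ATGL), which takes the first chain off triglyceride, had 12.29, 12.16 and 12.30 in KO, against 12.08, 12.14 and 12.23 in WT, at 1.07-fold (0.921 to 1.24). Lipe, the hormone-sensitive lipase that acts next, had 12.34, 12.21 and 12.10 in KO, against 12.10, 12.17 and 12.24 in WT, at 1.03-fold (0.878 to 1.22). The KO and WT arrays of both genes overlapped. Mgll, which frees the last chain, was at 1.1-fold (0.885 to 1.36), and Ces1d, a carboxylesterase of fat and liver, at 1.1-fold (0.943 to 1.28).

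Pnpla3, a relative of ATGL whose transcript follows feeding and insulin, was the lipase with the lower KO level. It had 10.47, 10.61 and 10.37 in KO, against 10.52, 10.93 and 10.87 in WT. WT replicate 1 lay among the KO arrays, and the other 2 WT arrays lay above all of them. The fold was 0.818 (0.651 to 1.03, unadjusted p = 0.0748 and adjusted p = 1.0 from limma). The log2 difference was -0.42 to -0.21 when single arrays were left out, and was -0.16 without KO replicate 3 and WT replicate 2.

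Among the regulators of ATGL, Abhd5, its coactivator, was at 1.02-fold (0.840 to 1.24). G0s2, its inhibitor, had 9.65, 9.68 and 9.25 in KO, against 9.85, 9.89 and 9.50 in WT. KO replicate 3 was the lowest array and WT replicate 3 lay below the other 2 KO arrays. The fold was 0.859 (0.651 to 1.13, adjusted p = 1.0 from limma), and the log2 difference was -0.080 without KO replicate 3. Hilpda, an inhibitor induced by low oxygen, was at 0.947-fold (0.746 to 1.20).

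The balance between paralogs and between steps was compared as the log2 ratio of 2 genes on the same array, in which the brightness of the probes cancels once KO is set against WT. Of 23 ratios, 1 did not overlap between genotypes, and no share over other gene pairs is given to set beside this count. Plin5 over Plin1 was -5.59, -5.60 and -5.51 in KO, against -5.46, -5.35 and -5.46 in WT, a difference of -0.14 on the log2 scale. The exact two-sided permutation p was 0.10, the smallest that 3 against 3 arrays can give, and 1.0 with Benjamini-Hochberg adjustment over the 23. The largest differences were those of Pnpla3 over Pnpla2 (-0.39), G0s2 over Pnpla2 (-0.32) and Fabp5 over Fabp4 (-0.31), each with overlap. Lipe over Pnpla2 moved least of the lipase ratios between the WT arrays (0.017 ± 0.0095, SD, n = 3), with -0.031 ± 0.14 in KO (SD, n = 3). Dgat2 over Dgat1 differed by -0.026, and Dgat2 over Pnpla2, a ratio of synthesis to lipolysis, by -0.14 with overlap.

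**Figure D4:**
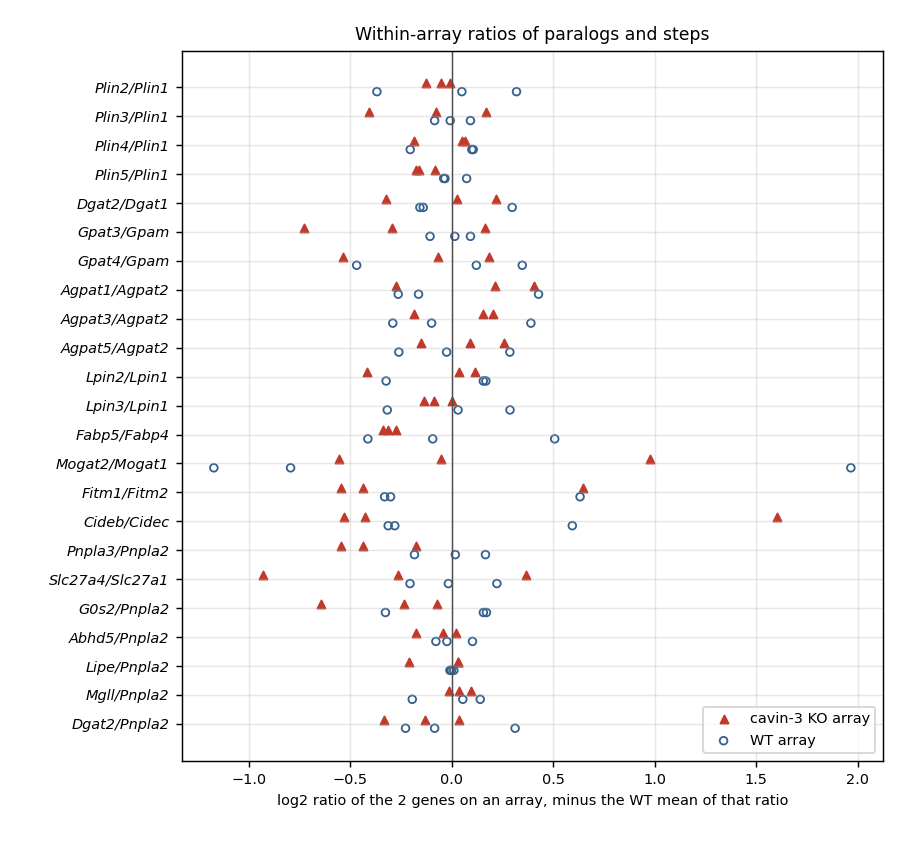
Log2 ratio of 2 genes on each array, minus the WT mean of that ratio, for 23 pairs (KO triangles, WT circles). Only for Plin5 over Plin1 do all KO points lie on the same side of all WT points (a difference of -0.14 between the means).

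Across all 43 genes, the mean log2 signal was 9.88, 9.76 and 9.77 in KO, against 9.65, 9.92 and 9.88 in WT, or 9.81 ± 0.067 and 9.81 ± 0.15 (SD, n = 3 each). WT replicate 1 was the lowest array for 17 of the 43 genes (39.5%, against 25.2% of all genes), and WT replicate 2 the highest for 15 (34.9%, against 22.1%). KO replicate 3 was the lowest for 12 genes (27.9%, against 16.9%). KO replicate 1 was the lowest for 0 (against 15.1%), and so was WT replicate 3 (0, against 9.39%). The mean of 8 adipocyte markers was also lowest in WT replicate 1 (11.36) and highest in WT replicate 2 (11.55) and KO replicate 1 (11.55). The part of fat cell content in these shifts was not tested.

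**Figure D5:**
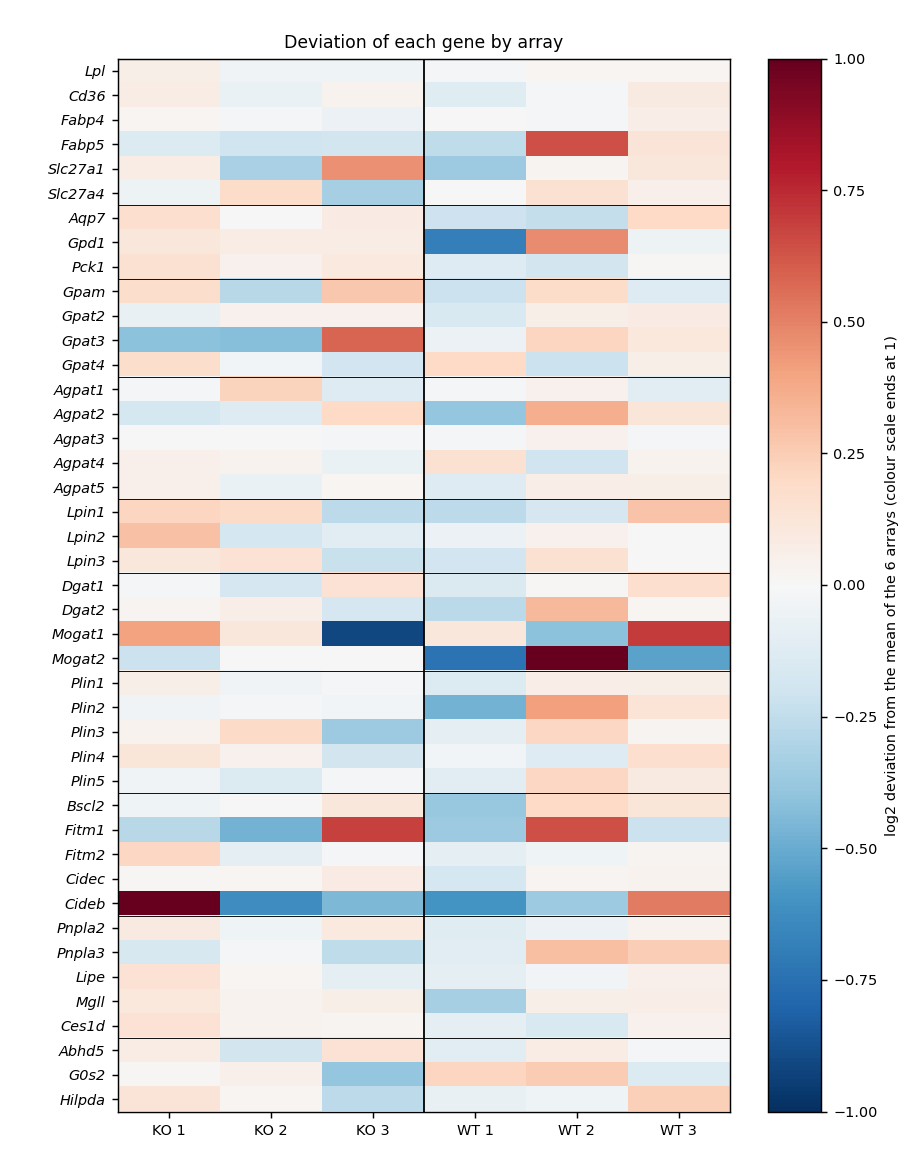
Log2 deviation of each of the 43 genes from its mean over the 6 arrays (KO left of the line, WT right), with colours ending at 1 on either side. Fitm1 is high in KO replicate 3 and WT replicate 2, Cideb in KO replicate 1 and Mogat2 in WT replicate 2.

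A further list of 51 genes of fatty acid activation, lipoprotein lipase control, droplet proteins and other lipid enzymes had 46 measured members. By limma, 0 of them had an adjusted p under 0.05, against 0.00575% of all probe sets. At an unadjusted p under 0.05 there were also 0, against 0.838% of all genes. There were 30 higher and 16 lower in KO, where 50.3% of all genes were higher. The median log2 difference was 0.034, against 0.00085 over all genes, and the shift was not tested. Lclat1, which acylates cardiolipin precursors, had the smallest unadjusted p of the list (0.106 from limma), at 1.12-fold (0.969 to 1.28). Its groups did not overlap, as for 4.61% of all genes. Vcp, an ATPase that draws proteins off droplets and other membranes, was at 0.878-fold (0.726 to 1.06). Tmem159, a partner of seipin, was at 1.19-fold (0.899 to 1.56), and Slc27a2, a fatty acid transporter of liver, at 1.52-fold (0.737 to 3.16) with its brightest array in KO replicate 1 (7.24), which also had the highest mean of the liver genes (6.88).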

How the data were processed

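RNA of adipose tissue from 3 cavin-3 KO and 3 WT mice was amplified and hybridised to Affymetrix Mouse Gene 1.0 ST arrays. The authors deposited linear intensity values per probe set, processed with GenePattern modules, and the submitters' processing notes name RMA (background correction, quantile normalization and summary of probes) without a version. For the genome build of the array annotation, the sources used here give nothing. Precision is limited by the number of arrays.

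After log2 transformation, limma 3.58.1 (lmFit, eBayes; R 4.3.3) tested KO against WT on all 34760 probe sets without covariates, and p was adjusted by Benjamini-Hochberg. The procedure was tested on simulated data. Genes were named from the platform annotation (21640 probe sets with 1 symbol, 1321 with several, 11799 not listed), of which 21553 matched RefSeq (GRCm38.p6). The probe set with the highest mean stood for a gene. Values per array are given for genes that had an unadjusted p under 0.05, did not overlap, differed by over 0.3, had an SD over 0.5 within a genotype or the smallest p of their step, and for Pnpla2, Lipe, Plin1, Dgat1, Dgat2, Cidec and Lpl. The genes, lists, pairs and motifs were chosen with earlier results of these data known. Alternatives were median centring, array weights, quantile normalization, a filter on dim probe sets, a replicate block, a robust variance with trend, the mean over probe sets, the methods' t-test on log2 and linear values, and leaving out arrays.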

Additional observations from a re-analysis of the deposited data

How the results depend on the processing

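None of the 43 genes was called under any of the 16 alternatives. Cavin3 itself was not called with the replicate block (adjusted p = 0.681 from limma) or with the methods' t-test on either scale. Nor was it called without any single array but WT replicate 1, or without KO replicate 3 and WT replicate 2 together. In these settings, the absence of calls tells nothing about differences smaller than that of Cavin3. Of 684 single-gene differences, 607 kept their direction. The other 77 belong to 31 genes with small or array-bound differences, and 12 genes kept their direction throughout. Several alternatives could not turn a gene, because they leave the estimated difference as it is. These were the trend and robust variance, the replicate block, the dim filter and the t-test run at the log2 scale. The mean over probe sets could alter only Fabp5, so many of the 607 were fixed in advance. Leaving out arrays raised the number of genes without overlap to 2 to 8, beside 9.93% to 15.1% of all genes, and that of ratios to 2 to 4. Without KO replicate 3 and WT replicate 2 together these were 8 genes (28.2% of all genes) and 7 ratios. For the ratios no share over other gene pairs is given, and groups of fewer arrays overlap less often. An unadjusted p under 0.05 was found for Pck1 with the trend and robust variance and with the methods' t-test on either scale, and for Pnpla3 with array weights. At that threshold, of all 34760 probe sets, 662 passed with the trend and robust variance and 1099 with array weights. The t-test passed 759 on log2 and 753 on linear values. Between 0 and 3 of the genes had an unadjusted p under 0.05 without single arrays, where 599 to 927 of all 34760 probe sets did. There were 3 (Fabp5, Plin2 and Pnpla3) without WT replicate 1, where 863 of all probe sets passed. The number higher in KO was 13 to 28 without single arrays. Array weights turned Cd36 (-0.017), Slc27a1 (-0.026), Gpat2 (-0.044), Gpat4 (0.0059), Agpat5 (-0.028), Mogat2 (0.055), Plin1 (-0.011), Bscl2 (-0.047) and Abhd5 (-0.00033). Linear values turned Agpat5 (-0.00046), and quantile normalization Lpl (0.0087), Fabp4 (0.0047) and Lpin2 (-0.0037). Without KO replicate 3 and WT replicate 2 together, Lpl (0.014), Slc27a1 (-0.00046), Slc27a4 (0.041), Agpat3 (0.016), Agpat4 (-0.050), Dgat2 (0.17), Mogat2 (0.53), Plin2 (0.15), Plin3 (0.14) and Plin4 (0.010) turned. The log2 differences of the genes that turned without single arrays ranged as follows: Lpl -0.047 to 0.0075, Cd36 -0.023 to 0.079, Slc27a1 -0.051 to 0.34, Gpd1 -0.12 to 0.45, Gpat2 -0.068 to 0.047, Gpat4 -0.15 to 0.063, Agpat1 -0.049 to 0.13, Agpat2 -0.27 to 0.10, Agpat3 -0.021 to 0.012, Agpat4 -0.087 to 0.090, Agpat5 -0.063 to 0.036, Lpin1 -0.0098 to 0.26, Lpin2 -0.14 to 0.097, Lpin3 -0.069 to 0.14, Dgat1 -0.10 to 0.055, Dgat2 -0.20 to 0.10, Mogat1 -0.54 to 0.12, Mogat2 -0.55 to 0.57, Plin1 -0.054 to 0.045, Plin2 -0.30 to 0.14, Plin3 -0.22 to 0.062, Plin4 -0.079 to 0.078, Bscl2 -0.14 to 0.15, Fitm1 -0.40 to 0.26, Fitm2 -0.023 to 0.13, Cideb -0.39 to 0.67, Lipe -0.013 to 0.10, Abhd5 -0.037 to 0.13 and Hilpda -0.16 to 0.034. The cause was not tested.

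The replicate numbers do not pair the arrays by the labels or the data. Deviations from the group means correlated at -0.24, -0.50 and -0.042 between arrays with the numbers 1, 2 and 3, across genes, which are not independent replicates. Each KO array deviated most alike with a WT array of another number (0.71 for KO replicate 2 and WT replicate 1, 0.61 for KO replicate 3 and WT replicate 2, 0.51 for KO replicate 1 and WT replicate 3). No label gives such pairs, and no fit used them. With the replicate block 0 of the 43 genes and 0 of 34760 probe sets were called, where 2 probe sets were called without it. The median difference was 0.0056, which a block of paired KO and WT arrays cannot change. Signal over background could not be judged from the deposited values, and 4 dim genes left the fit with the filter on dim probe sets.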

Other observations

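Plin2, Gpd1 and Fabp5 were nearly equal on the KO arrays and spread on the WT arrays. The SD within a genotype was 0.014 in KO and 0.45 in WT for Plin2, 0.024 in KO and 0.58 in WT for Gpd1, and 0.034 in KO and 0.45 in WT for Fabp5. The KO arrays had the smaller SD for 23 of the 43 genes (53.5%), where 52.8% of all genes did.

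Of the further list of lipid genes, some that were bright on KO replicate 2 and WT replicate 1 are given here, chosen after their values were seen. Mboat2 had 7.52 in KO replicate 2 and 8.45 in WT replicate 1, against 5.98 to 6.55 on the other arrays. Mboat1 had 7.94 in KO replicate 2 and 8.43 in WT replicate 1, and Lipg, the endothelial lipase, 6.64 in KO replicate 2 and 7.71 in WT replicate 1, against 5.66 to 6.04 elsewhere. Acsl4 had 9.40 and 9.34 on these 2 arrays, against 8.15 to 8.64 elsewhere. Got2 had 10.78 and 11.17, against 9.79 to 10.25, and Ces1e 5.54 and 5.82, against 4.24 to 4.58. Other genes of the list were not bright there, such as Lclat1, with 9.16 in KO replicate 2 and 9.08 in WT replicate 1, against 8.93 to 9.18 elsewhere.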
